A study of Mus musculus with 9 samples.

Results

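The ciliary transport, BBSome and transition zone genes were 44 genes whose products build, load and gate the primary cilium. They were chosen by name and role, not by their values, but with earlier results of these data known. They were 13 subunits of the IFT-B train, 6 of the IFT-A train, 7 of the BBSome, 3 motor subunits, 3 regulators of the ciliary membrane and 12 transition zone genes. Of the 44 genes, 43 had a row in the expression table, and all 43 were past the filter on low values, among 14029 genes tested out of 21356 gene symbols. The transition zone gene Tctn2 was not analysed here.

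The primary cilium is a slender, membrane-covered projection through which vertebrate cells receive Sonic hedgehog (Shh). Intraflagellar transport (IFT) trains carry cargo along its axoneme: IFT-B trains, pulled outward by kinesin-II, bring in structural material, and IFT-A trains, with cytoplasmic dynein, return from the tip and help membrane proteins to enter. The BBSome is a coat complex that removes membrane receptors from the cilium, and the transition zone is the gate at its base. Gpr161 is an orphan receptor of the ciliary membrane that restrains Shh signaling; it enters with the adaptor Tulp3 and IFT-A and leaves through the BBSome, so the genes described here encode the machinery on which its location depends.

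Poly-A selected RNA was sequenced from dissected midbrain of C57BL/6 mouse fetuses at E13.5, in 9 libraries, 3 per genotype. The floxed control was Gpr161f/f with no Cre, the Cre control was Gpr161f/+;Wnt1-Cre, with 1 floxed allele, and the cKO carried Wnt1-Cre and both floxed alleles (the labels of the cKO spell the gene Gpt161). No group was free of a floxed allele. Wnt1-Cre is a transgene in which Wnt1 regulatory sequence drives Cre recombinase, active in the midbrain and dorsal neural tube and in the neural crest that leaves it, so the dissected tissue can also hold cells outside that lineage. The labels do not say whether a library was 1 fetus or a pool, and p-values measure only the spread between these libraries. The values are log2 values, already scaled to make the libraries comparable, with changes of weakly expressed genes compressed. A level of 1 cpm (counts scaled to a common library total) corresponded to between 4.73 and 4.78 on this scale, and the mean of the ciliary genes was between 7.66 and 11.70. The depth is unknown because no read counts were given. Since values are not per length, levels are compared here between libraries, within a gene or as the summed linear level of 1 list. In such a sum, genes with high values weigh most.

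The midbrain regulator genes En1 and Otx2 were well above the filter in every library, between 10.50 and 10.97 for En1 and between 11.28 and 11.58 for Otx2. Gpr161 itself had a mean log2 value of 11.77 ± 0.030 (SD, n = 3) in floxed controls, 11.88 ± 0.096 in Cre controls and 11.88 ± 0.12 in the cKO. Its log2 difference was 0.11 for cKO minus floxed control (adjusted p = 0.223 by limma, and 0.0471 without cKO replicate 1) and 3.3e-04 for cKO minus Cre control (adjusted p = 0.998). The table holds 1 value per gene and does not separate the deleted exons, so Gpr161 does not check the labels, and cKO means below the libraries labelled cKO. The Shh target list separated the groups: the summed linear level of its 4 genes was between 165.5% and 171.1% of the floxed control mean in the cKO and between 88.8% and 105.5% in the 6 control libraries. Cre control replicate 1 stood apart from the other 2 Cre libraries for the neuron markers, at 74.5% of the floxed control mean against 89.3% and 92.6%. It was also the lowest of them for the meninges and mesenchyme markers (92.0% against 154.2% and 134.1%) and the endothelial markers (94.5% against 120.7% and 112.8%). For the choroid plexus markers it lay between them (42.0% against 72.3% and 32.7%). The ciliary gene calls that change without this library are given below.

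Many ciliary genes carry an X-box near their start, the motif bound by RFX transcription factors. A full-length X-box form, GTNNCC and GNAAC with any 3 bases between them (N is any base), was searched on both strands in the window from 250 bases before to 50 bases after each gene's start (RefSeq, GRCm38.p6). Of the ciliary genes 39 matched an entry, and Ift80, Ift81, Ift122 and Tmem67 did not. The motif was in 10 of the 39 genes (25.6%), against 673 of 27025 genes of the whole annotation (2.49%), a description with no test in which base composition was not matched. It was in 5 of 10 transition zone genes, 3 of 7 BBSome genes and 2 of 11 IFT-B genes, and no match was found in the 5 IFT-A genes, the 3 motor genes or the 3 membrane regulators with an entry. The windows below are shown because the BBSome and transition zone genes held most of the matches, with the motif in capitals and each written along the strand of its gene.
Ift22, chr5:136908079-136908108 (+): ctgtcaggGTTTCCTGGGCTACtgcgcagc
Ift22, chr5:136908109-136908138 (+): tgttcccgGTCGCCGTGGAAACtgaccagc
Ift57, chr16:49699199-49699228 (+): cgggtctgGTTGCCGTGGTGACcggctgcc
Bbs1, chr19:4906605-4906634 (-): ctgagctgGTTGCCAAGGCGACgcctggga
Bbs4, chr9:59353464-59353493 (-): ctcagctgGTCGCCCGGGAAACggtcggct
Bbs7, chr3:36613489-36613518 (-): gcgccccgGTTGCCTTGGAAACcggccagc
Tctn1, chr5:122264411-122264432 (-): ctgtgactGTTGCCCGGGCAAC
B9d2, chr7:25680788-25680817 (+): aacctgctGTTGCCCCAGCAACagtcgggg
Mks1, chr11:87853183-87853212 (+): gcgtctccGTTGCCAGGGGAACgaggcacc
Tmem231, chr8:111933781-111933810 (-): cgccgtcgGTTGCCGTGGAGACtcggcgct
Ahi1, chr10:20952560-20952589 (+): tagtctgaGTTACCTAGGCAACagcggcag

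The first Ift22 window and those of Ift57, Bbs1 and Tmem231 match on the opposite strand only, and in Bbs7, Tctn1, Mks1 and Ahi1 the same bases match on both strands. The Tctn1 window is shorter because the searched stretch ends there. In Ahi1, the gene with the largest log2 difference from the floxed control of the 43, the match began 22 bases after the start. The 10 genes with a match had a median log2 difference, cKO minus floxed control, of -0.013, with Ahi1 the 1 gene that passed the test, and the 29 genes without a match had a median of -0.024, with 6 genes that passed. The difference between these sets was not tested, and 38.3% of all genes passed in this comparison.

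The first comparison, cKO with the floxed control, asks whether the cilium machinery differed where Gpr161 had been targeted. The floxed control has no Wnt1-Cre, so the transgene and the deletion cannot be told apart in it. Few of the ciliary genes moved and none moved far: 8 of 43 genes passed an adjusted p of 0.05 (18.6%), against 38.3% of all genes tested. Ift43, Ift27, Ift80 and Ift140 were higher in the cKO (19.5% of all genes passed in this direction), and Kif3a, Ahi1, Kif3b and Ift88 were lower (18.8% of all genes). No ciliary gene was a DEG, that is past the test with a fold change over 1.5 (0 of 43, against 2.92% of all genes), while 14 of 43 had an unadjusted p under 0.05 by limma (48.1% of all genes). The 43 log2 differences were between -0.41 and 0.20, with a median of -0.028, beside a median of 0.011 over all genes, and 17 of 43 were positive (52.4% of all genes). All cKO libraries were above all floxed control libraries for 7 ciliary genes (29.9% of all genes) and below them for 11 (27.3%). The median size of the difference without its sign was 0.088, and 0.129 over all genes. With the libraries centred on their medians or quantile normalized, 3 genes were higher and 8 lower: Ift140 was no longer past the test, and Bbs4, Traf3ip1, Tctn1 and Tmem67 joined the lower genes. The share of all genes that passed in these fits is not given here.

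**Figure D1:**
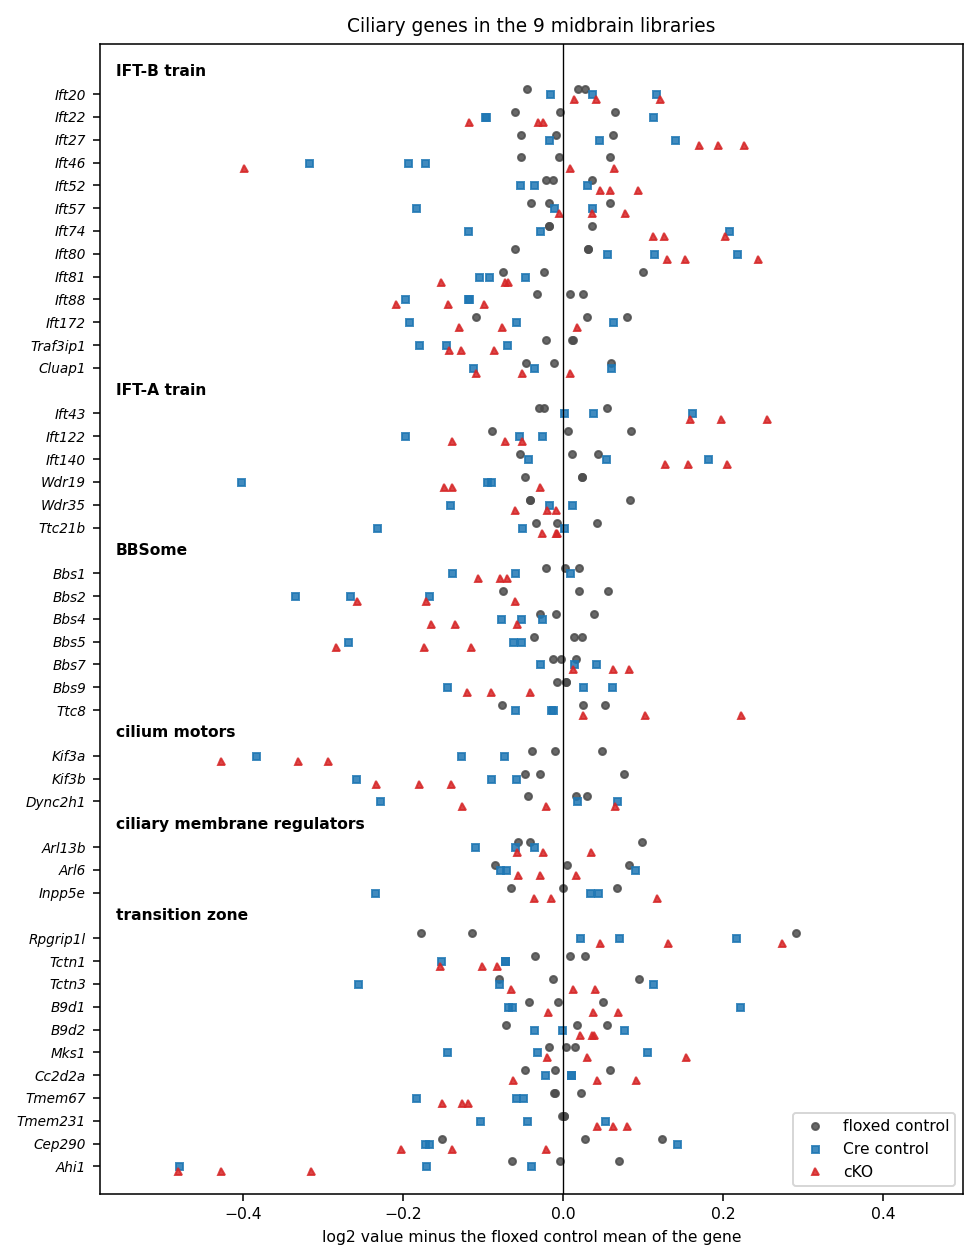
Log2 value of each of the 43 ciliary genes in each library, minus the floxed control mean of that gene, grouped by role; circles are the floxed control, squares the Cre control and triangles the cKO. Kif3a, Kif3b, Ahi1 and Ift88 of the cKO sit left of all floxed control points, and Ift27, Ift43, Ift80 and Ift140 sit right of them. Counting these, the cKO lies wholly left for 11 genes and wholly right for 7, and overlaps the floxed control in the others.

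In the IFT-B train, 3 of 13 genes passed the test against the floxed control (23.1%, with 38.3% of all genes), 2 higher and 1 lower. Ift27 (chr15:78159463-78174107 in GRCm38) encodes a small GTPase of the train that serves BBSome-dependent exit from the cilium. Its log2 values were 9.20, 9.25 and 9.32 in the floxed control, 9.40, 9.24 and 9.30 in the Cre control and 9.48, 9.43 and 9.45 in the cKO. All 3 cKO libraries were above all 6 controls, by a narrow margin over Cre control replicate 1. The log2 difference from the floxed control was 0.20 ± 0.054 (SE, adjusted p = 0.0168 by limma), or 14.6% higher. Without floxed control replicate 1 the adjusted p was 0.0650, and without cKO replicate 1 it was 0.0604.

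Ift80 (chr3:68892499-69004570) encodes a WD-repeat subunit of IFT-B. Its log2 values were 10.01, 10.10 and 10.10 in the floxed control, 10.29, 10.13 and 10.19 in the Cre control and 10.20, 10.32 and 10.23 in the cKO. The cKO lay above the floxed control in every library and overlapped the Cre control. The log2 difference from the floxed control was 0.18 ± 0.054 (SE, adjusted p = 0.0281), and the adjusted p passed 0.05 without floxed control replicate 1 (0.104), floxed control replicate 3 (0.0546), cKO replicate 2 (0.105) or cKO replicate 3 (0.0521).

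Ift88 (chr14:57424062-57517936) encodes a core IFT-B subunit needed to assemble a cilium. Its log2 values were 9.69, 9.63 and 9.67 in the floxed control, 9.55, 9.47 and 9.55 in the Cre control and 9.57, 9.46 and 9.52 in the cKO. Both groups with Cre were below the floxed control in every library and lay on the same level. The log2 difference, cKO minus floxed control, was -0.15 ± 0.047 (SE, adjusted p = 0.0292), or a change of -9.95%. It lost the call without floxed control replicate 1 (adjusted p = 0.0919), floxed control replicate 3 (0.0822), cKO replicate 2 (0.109) or cKO replicate 3 (0.0621).

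Of the 10 IFT-B genes that did not pass, Traf3ip1 was nearest, with a log2 difference of -0.12 (adjusted p = 0.0698, and 0.0467 without Cre control replicate 1). Ift74, another IFT-B subunit, was 0.15 (adjusted p = 0.134, and 0.0138 without Cre control replicate 1). Ift46, a subunit of the IFT-B core, had the widest spread of the 43 genes within the cKO (SD 0.25, n = 3), because 1 library was low: its log2 values were 10.46, 10.86 and 10.92 in the cKO and between 10.80 and 10.91 in the floxed control. Ift52, another core subunit, was the only gene beside Ift27 with all cKO libraries above all 6 controls, at 10.05, 10.06 and 10.10 against at most 10.04. Its log2 difference was 0.066 from the floxed control (adjusted p = 0.234) and 0.086 from the Cre control (adjusted p = 0.194). The 2 of 43 genes with that order compare with 14.7% of all genes tested, and none had every cKO library below every control (11.5% of all genes).

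In the IFT-A train, 2 of 6 genes passed (33.3%, with 38.3% of all genes), both higher in the cKO. Ift43 (chr12:86082541-86162459), a small IFT-A subunit, had log2 values of 9.31, 9.31 and 9.39 in the floxed control, 9.50, 9.37 and 9.34 in the Cre control and 9.59, 9.50 and 9.53 in the cKO. The cKO was above the floxed control throughout and met the Cre control only at its replicate 1. The log2 difference from the floxed control was 0.20 ± 0.055 (SE, adjusted p = 0.0161), or 15.2% higher. Without floxed control replicate 1 the adjusted p was 0.0564, and without cKO replicate 1 it was 0.0632.

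Ift140 (chr17:25016085-25099495), a core IFT-A subunit, had log2 values of 10.17, 10.11 and 10.20 in the floxed control, 10.12, 10.34 and 10.22 in the Cre control and 10.29, 10.32 and 10.37 in the cKO. The cKO lay above the floxed control in every library, and the Cre control spanned both groups. Its log2 difference of 0.16 ± 0.058 (SE) sat at the threshold (adjusted p = 0.0499) and lost the call under 12 of 16 alternative settings, the omission of any floxed control or cKO library among them, with adjusted p up to 0.142 without floxed control replicate 2. The other IFT-A genes, Ift122, Wdr19, Wdr35 and Ttc21b, had log2 differences between -0.11 and -0.015 from the floxed control and did not pass.

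The BBSome had 0 of 7 genes past the test by limma (38.3% of all genes), and 3 with an unadjusted p under 0.05 (48.1% of all genes). Bbs5, whose product binds membrane lipids, had the smallest p, with log2 values of 7.79, 7.78 and 7.73 in the floxed control, 7.70, 7.49 and 7.71 in the Cre control and 7.65, 7.48 and 7.59 in the cKO. The cKO was below the floxed control in every library and overlapped the Cre control. Its log2 difference was -0.19, just outside the threshold (adjusted p = 0.0574), and it passed in 5 alternatives, such as the omission of Cre control replicate 1 (0.0481) or of its replicate 2 (0.0306).

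Bbs4, a core subunit, was next, with log2 values of 9.62, 9.56 and 9.58 in the floxed control, 9.51, 9.53 and 9.56 in the Cre control and 9.42, 9.45 and 9.53 in the cKO. The cKO was below the floxed control in every library and overlapped the Cre control at its highest value. Its log2 difference was -0.12 (adjusted p = 0.0624), and it passed with the libraries median-centred (0.0409), quantile normalized (0.0406), without Cre control replicate 1 (0.0476) or without cKO replicate 3 (0.0437).

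Bbs2, another core subunit, had log2 values of 9.49, 9.46 and 9.36 in the floxed control, 9.10, 9.27 and 9.17 in the Cre control and 9.27, 9.18 and 9.38 in the cKO. Here the Cre control had the lowest mean, and the cKO overlapped both controls. Its log2 difference, cKO minus floxed control, was -0.16 (adjusted p = 0.0766), and -0.21 without cKO replicate 3 (adjusted p = 0.0416). Ttc8, also a BBSome subunit, was 0.12 (adjusted p = 0.145).

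Of the 3 motor subunits, the outward motor fell and the return motor did not pass the test (2 of 3 genes passed, with 38.3% of all genes). Kif3a (chr11:53567379-53601967) encodes a motor subunit of kinesin-II, which also moves cargo in axons. Its log2 values were 11.93, 11.85 and 11.87 in the floxed control, 11.50, 11.76 and 11.81 in the Cre control and 11.46, 11.55 and 11.59 in the cKO. The cKO and the floxed control did not overlap, and Cre control replicate 1 lay within the cKO range while the other 2 Cre libraries lay between the groups. Kif3a fell by 0.35 ± 0.074 on the log2 scale (SE, adjusted p = 0.00509), a change of -21.6%, and kept the call under all 16 alternative settings.

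Kif3b (chr2:153291413-153333390) encodes the partner of Kif3a in kinesin-II. Its log2 values were 11.12, 11.13 and 11.24 in the floxed control, 10.90, 11.07 and 11.10 in the Cre control and 10.93, 10.98 and 11.02 in the cKO, in the same order as Kif3a, with Cre control replicate 1 the lowest of the 9. Its log2 difference was -0.19 ± 0.058 (SE, adjusted p = 0.0303), and it lost the call without floxed control replicate 3 (0.115), cKO replicate 1 (0.105) or cKO replicate 2 (0.0711). Dync2h1, the heavy chain of the dynein of the return track, differed by -0.028 (adjusted p = 0.795). Kifap3, the non-motor subunit of kinesin-II, is outside the 44 genes and is named after its values were seen. It differed by -0.35 from the floxed control (adjusted p = 0.00741) and by -0.17 from the Cre control (adjusted p = 0.189). Without Cre control replicate 1 the latter was -0.28 (adjusted p = 0.00293).

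None of the 3 membrane regulators passed (0 of 3 by limma, with 38.3% of all genes, and 0 at an unadjusted p under 0.05, with 48.1%). Arl6 encodes the GTPase that recruits the BBSome to membrane, and its log2 values were 9.56, 9.65 and 9.73 in the floxed control, 9.74, 9.58 and 9.57 in the Cre control and 9.67, 9.62 and 9.59 in the cKO. The 3 groups overlapped fully. Its log2 difference was -0.024, with a 95% interval from -0.16 to 0.11. Arl13b, a GTPase that keeps Inpp5e in the cilium, was -0.017 (interval from -0.14 to 0.11), and the phosphoinositide phosphatase Inpp5e was 0.022 (interval from -0.15 to 0.20).

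In the transition zone, 1 of 11 genes passed (9.09%, with 38.3% of all genes). Ahi1 (chr10:20952547-21080429), whose product is a scaffold of the gate and whose human counterpart is mutated in Joubert syndrome, had log2 values of 11.80, 11.67 and 11.73 in the floxed control, 11.25, 11.56 and 11.69 in the Cre control and 11.25, 11.30 and 11.42 in the cKO. All cKO libraries were below all floxed control libraries, and Cre control replicate 1 again sat at the cKO level. Ahi1 fell by 0.41 ± 0.096 on the log2 scale (SE, adjusted p = 0.00855), a change of -24.7%, and kept the call under all 16 alternative settings.

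Tmem67, the transition zone protein meckelin, was just outside the threshold, with a log2 difference of -0.13 (adjusted p = 0.0554), and passed in 6 alternatives, at 0.0337 with the libraries median-centred and 0.0201 without Cre control replicate 1. Tctn1, a subunit of the same complex, was -0.11 (adjusted p = 0.0715, and 0.0415 without Cre control replicate 1). Rpgrip1l, which anchors the gate, had the widest spread within the floxed control (SD 0.25, n = 3), at 9.49, 9.96 and 9.56, where replicate 2 was as high as the highest cKO library (9.95), and its adjusted p of 0.322 became 0.0206 without that replicate. The other 7 genes, Tctn3, B9d1, B9d2, Mks1, Cc2d2a, Tmem231 and Cep290, were between -0.12 and 0.061.

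**Figure D2:**
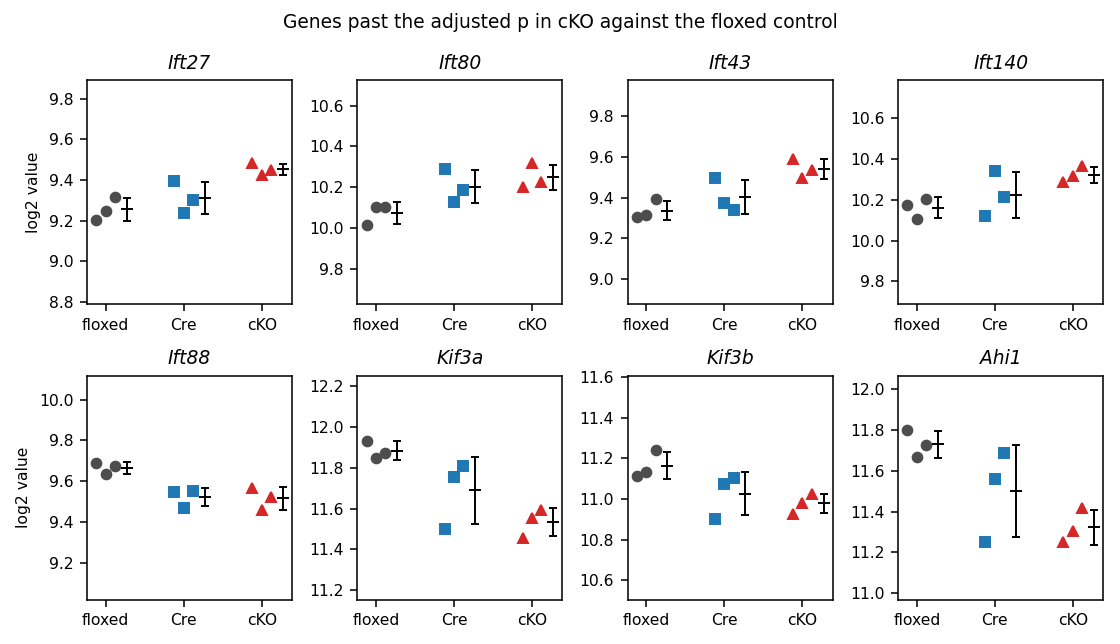
Log2 values in the 9 libraries of the 8 genes that passed an adjusted p of 0.05 in cKO against the floxed control, by genotype, with bars for the mean ± SD of 3 libraries. Kif3a and Ahi1 show the widest gap between floxed control and cKO, and Cre control replicate 1 lies with the cKO in both.

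The second comparison, cKO with the Cre control, keeps the Wnt1-Cre transgene constant, and shares the cKO libraries with the first. No ciliary gene passed (0 of 43 by limma, against 9.72% of all genes tested, 4.86% higher and 4.85% lower), and none was a DEG (0.563% of all genes). At an unadjusted p under 0.05 there were 3, Ift43, Ift27 and Ttc8, all higher in the cKO (29.3% of all genes). The 43 log2 differences were between -0.18 and 0.15, with a median of 0.019, beside 0.012 over all genes, and 27 of 43 were positive (53.7% of all genes). Every cKO library was above every Cre control library for 3 genes (17.8% of all genes) and below for none (13.7%). With none called against the Cre control, none was called against both controls (4.68% of all genes were higher and 4.66% lower in both).

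For the 8 genes called against the floxed control, the log2 differences from the Cre control were 0.14 for Ift43 (adjusted p = 0.133), 0.14 for Ift27 (0.118), 0.046 for Ift80 (0.600) and 0.099 for Ift140 (0.283). They were -0.18 for Ahi1 (adjusted p = 0.246), -0.16 for Kif3a (0.190), -0.049 for Kif3b (0.610) and -0.0065 for Ift88 (0.942). That no ciliary gene passed rested on 1 library. Without Cre control replicate 1, 5 of 43 genes passed (against 23.5% of all genes then tested), 3 higher and 2 lower. The higher genes were then Ift43 at 0.18 (adjusted p = 0.0288), Ift27 at 0.18 (0.0314) and Ift74 at 0.22 (0.00928). The lower genes were Kif3a at -0.25 (adjusted p = 0.00706) and Ahi1 at -0.30 (0.00960).

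The third comparison, between the controls, shares the floxed control with the first and the Cre control with the second. No ciliary gene passed (0 of 43 by limma, against 0.057% of all genes tested, 0.0499% higher and 0.00713% lower), and none was a DEG (0.0285% of all genes). At an unadjusted p under 0.05 there were 8 (17.5% of all genes), Ift80 higher in the Cre control and Kif3a, Ahi1, Kif3b, Bbs2, Traf3ip1, Wdr19 and Ift88 lower. The difference was positive in 10 of 43 genes (49.6% of all genes), with a median of -0.052 against -0.0010. All Cre control libraries were below all floxed control libraries for 10 genes (12.1% of all genes) and above them for 1 (10.7%). The lowest log2 difference was that of Bbs2, at -0.26 (adjusted p = 0.151).

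**Figure D3:**
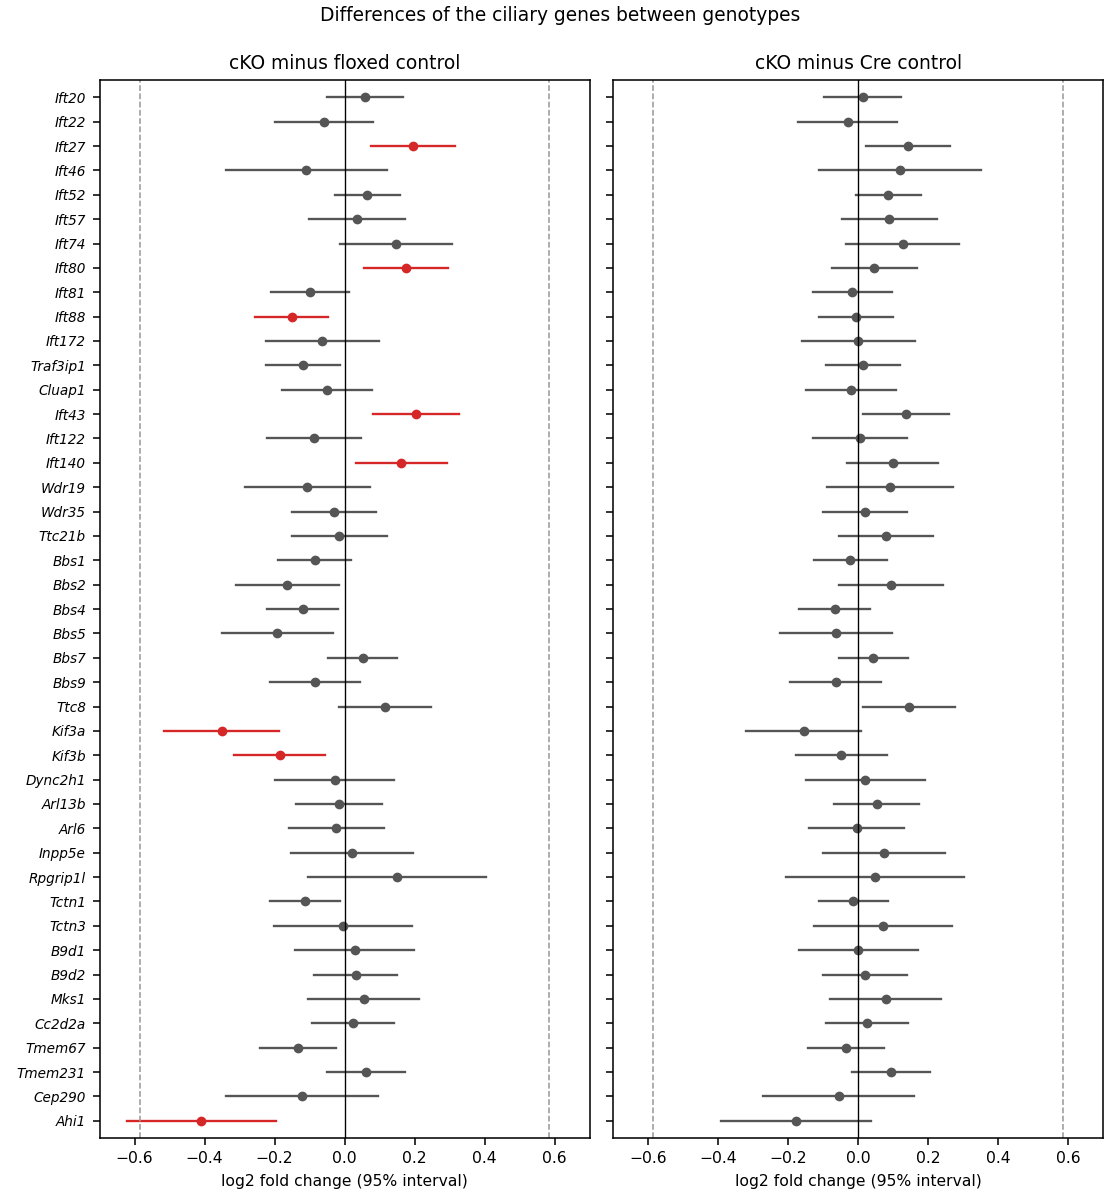
Log2 difference of each of the 43 genes with its 95% interval, for cKO minus floxed control (left) and cKO minus Cre control (right); red marks an adjusted p under 0.05, grey the rest, and dashed lines mark a fold change of 1.5 in each direction (0.585 on the log2 scale). Of all intervals drawn only that of Ahi1, cKO minus floxed control, reaches past a dashed line.

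The intervals bound differences in these log2 values, compressed for weakly expressed genes, over the whole dissected tissue. They do not bound a change within the cells of the Wnt1-Cre lineage alone. For cKO minus floxed control, 42 of 43 intervals lay wholly within a 1.5-fold change (89.5% of all genes), the exception being Ahi1 with an interval from -0.62 to -0.19, and 40 lay within a 1.3-fold change (93.0%, against 71.4% of all genes). For cKO minus Cre control, all 43 lay within 1.5-fold and 42 within 1.3-fold (97.7%, against 83.2% of all genes). The median distance from the estimate to its bound was 0.130 for the ciliary genes and 0.134 for all genes. The intervals are for each gene on its own and rest on 3 libraries per group.

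Other genes of the cilium were listed for comparison in 3 lists of 47 genes: further transport and BBSome genes, further transition zone and nephronophthisis genes, and basal body genes. Against the floxed control 14 of 47 passed, 9 higher and 5 lower (29.8%, with 38.3% of all genes). Against the Cre control 2 passed, both higher (4.26%, with 9.72% of all genes). These were Kif7, a kinesin at the ciliary tip that regulates Gli factors, and Tmem138, a transition zone membrane protein, named here after their values were seen. Kif7 was 0.19 higher on the log2 scale than the floxed control (adjusted p = 0.0179) and 0.21 higher than the Cre control (adjusted p = 0.0418), and lost the second call under 11 of 16 settings. Tmem138 was 0.22 higher than each control (adjusted p = 0.0121 and 0.0408) and lost the second call under 9 of 16. Tulp3, the adaptor that carries Gpr161 into the cilium, differed by 0.061 and 0.076 (adjusted p = 0.422 and 0.397).

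Of 6 RFX and FOXJ1 factors, Rfx3 was lower than in the floxed control (-0.28, adjusted p = 0.00941) and Rfx4 higher (0.19, adjusted p = 0.0290), and neither passed against the Cre control. Rfx4 lost the call in 5 settings that leave out 1 library, with adjusted p up to 0.109 without cKO replicate 1. Of the motile cilium genes, which mark cells with many beating cilia, 10 of 18 were tested. Of these, 4 passed as lower in the cKO against the floxed control (18.8% of all genes passed in this direction). Against the Cre control 0 of these genes passed, with 9.72% of all genes (by limma, 1 at an unadjusted p under 0.05). Their summed linear level was between 86.7% and 89.1% of the floxed control mean in the cKO, between 86.6% and 91.8% in the Cre control and between 94.2% and 105.5% in the floxed control. That of the 7 choroid plexus markers, a tissue with such cilia, was between 33.7% and 46.6%, between 32.7% and 72.3% and between 45.4% and 139.7% in the same order, with floxed control replicate 1 the lowest floxed library for both lists. The choroid plexus list includes Otx2, which is named above as a midbrain regulator. Of the choroid plexus markers 1 of 7 passed as lower against the floxed control (18.8% of all genes). Against the Cre control 0 passed, with 9.72% of all genes (by limma, 0 at an unadjusted p under 0.05). Their part in the result for the motile cilium genes was not tested.

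Marker lists of other cells moved with genotype beside these results. All 12 neuron markers (Tubb3, Map2 and Stmn2 among them) passed as lower in the cKO against the floxed control, and 4 passed against the Cre control. Their summed linear level was between 65.8% and 75.2% of the floxed control mean in the cKO, between 74.5% and 92.6% in the Cre control and between 95.6% and 103.7% in the floxed control. All 12 cell cycle markers passed as higher against the floxed control. Of these, 6 also passed relative to the Cre control, where all 12 differences were positive, with summed levels between 128.2% and 150.6%, between 109.6% and 123.6% and between 96.8% and 104.1% in the same order. Of the meninges and mesenchyme markers 7 of 8, and of the erythroid markers 5 of 7, passed as higher in the cKO against the floxed control. Relative to the Cre control, 0 of 8 (by limma, 1 at an unadjusted p under 0.05) and 3 of 7 passed, with all differences positive. The summed level of the meninges and mesenchyme markers was between 151.8% and 156.7% in the cKO, between 92.0% and 154.2% in the Cre control and between 68.3% and 134.7% in the floxed control. That of the erythroid markers was between 119.8% and 228.5%, between 92.2% and 106.7% and between 76.1% and 129.8% in the same order. The levels of both lists overlapped between the 2 controls. The summed level of the 43 ciliary genes was between 94.1% and 96.3% in the cKO, between 92.3% and 96.7% in the Cre control and between 98.8% and 100.9% in the floxed control. The 3 motor genes were between 82.3% and 87.0% in the cKO, and between 80.4% and 97.2% in the Cre control. Within the Cre control, replicate 1 was the lowest for the motor genes and for the neuron markers. The part of these marker lists in the differences of the ciliary genes, the fall of Kif3a, Kif3b and Ahi1 included, was not tested. In bulk tissue, fewer cells of a type and less RNA per cell cannot be told apart.

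**Figure D4:**
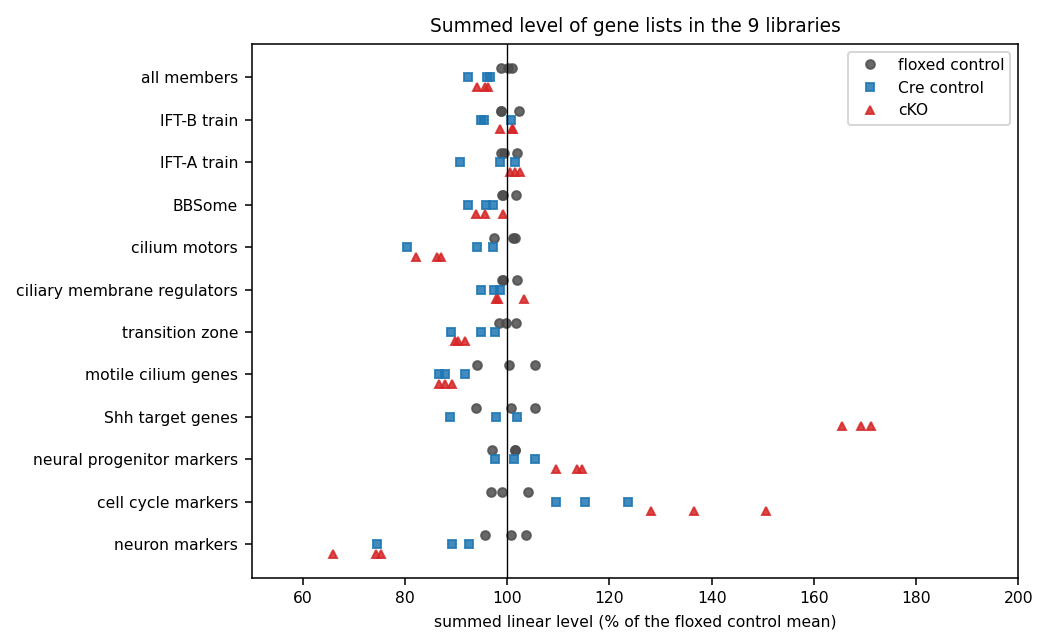
Summed linear level of each gene list in each of the 9 libraries, as a percentage of its floxed control mean (vertical line at 100); circles are the floxed control, squares the Cre control and triangles the cKO. The 6 role groups of ciliary genes stay between 80.4% and 103.2%, while the Shh targets rise to 171.1%, the cell cycle markers to 150.6% and the neuron markers fall to 65.8% in the cKO.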

How the data were processed

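The authors deposited 1 table of log2 values for 9 libraries, already scaled between libraries and with weakly expressed genes pulled toward their mean, as read from the values. The submitters' processing notes name FastQC 0.10.1, kallisto 0.46.1, DESeq2 and mm10, without roles, and the transformation was not given in the sources used here. The pull compresses the fold changes of low genes. Of 27360 rows, 5764 without a gene name and 118 with a repeated name were left out, and genes with at least 1 cpm on the linear values in 3 libraries were tested. All 9 libraries entered 1 model with a mean per genotype, run with limma 3.58.1 under R 4.3.3 (eBayes with a trend, two-sided moderated tests, Benjamini-Hochberg adjustment over all 14029 genes), and the fit was tested on simulated data. Percentages of summed levels are sums of linear values over a list. The ciliary genes and the other lists were chosen with earlier results of these data known.

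The genes named were Gpr161 and Tulp3, the ciliary genes past the test, the 2 with the smallest p in a role group with none, and the 2 nearest the threshold on each side. Other genes were named after their values were seen. Replicate numbers entered only the alternative with a block. The alternatives changed the filter, threshold, libraries, spread, scaling and block.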

Additional observations from a re-analysis of the deposited data

How the results depend on the processing

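Against the floxed control, 4 ciliary genes were higher and 4 lower (19.5% and 18.8% of all genes). The share of all genes that passed also changed between fits and is not given for each. The counts below therefore cannot be read as particular to the ciliary genes. Leaving out 1 library at a time gave 0 to 5 higher and 2 to 9 lower. None were higher without floxed control replicate 1, 1 without cKO replicate 1 and 2 without floxed control replicate 3, cKO replicate 2 or cKO replicate 3. The lower genes numbered 2 without floxed control replicate 3 or cKO replicate 2 and 9 without Cre control replicate 1. Median centring and quantile normalization each gave 8 lower. An unadjusted p gave 10 lower (48.1% of all genes in either direction), and the fold change limit of a DEG left 0 higher and 0 lower (2.92% of all genes). Against the Cre control, with none called (9.72% of all genes), leaving out 1 library gave 0 to 3 higher and 0 to 2 lower. The highest counts came without Cre control replicate 1, and an unadjusted p gave 3 higher (29.3% of all genes in either direction). Between the controls, an unadjusted p gave 1 higher and 7 lower (17.5% of all genes in either direction), and the omission of a library left 0 in each direction. No ciliary gene called in the reported fit or in an alternative changed sign between them. Why these counts moved was not tested.

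The replicate numbers paired the libraries weakly at most, which was not tested. Deviations of libraries with the same number correlated between -0.027 and 0.26 (median 0.10, 9 pairs), and those with different numbers between -0.28 and 0.16 (median -0.053, 18 pairs). With the replicate block, 3 were higher and 5 lower against the floxed control, and 0 in each direction in the other comparisons. The depth is unknown, so precision is limited by the 3 libraries per group, and changes of low genes are understated by the shrinkage.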
